A study of Mus musculus with 89 samples.

Results

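Enterochromaffin (EC) cells were represented by 94 of the 5199 single-cell wells of mouse jejunum that were kept. A well was kept with 200 to 7000 unique molecular identifiers (UMIs, each standing for 1 captured RNA molecule), 150 to 1500 genes and at most 40% mitochondrial UMIs. It was called enteroendocrine when the UMIs of 12 genes (Chga, Chgb, Sct, Cck, Gip, Ghrl, Gcg, Nts, Sst, Pyy, Tac1 and Tph1) summed to at least 8, and EC when, in addition, Tph1 and Tac1 together had at least 2 UMIs. EC wells were thus chosen by the UMIs of these 12 genes. The rule left 189 other enteroendocrine wells and 4916 wells that were not enteroendocrine.

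All samples were jejunum of male C57BL/6 mice on regular chow with no genotype or treatment difference, and each sample was a plate of wells processed by MARS-seq, which counts UMIs at the 3′ end of polyadenylated RNA. Single cells came from 44 plates of 4 mice, and clumps of attached cells from 45 plates of 6 mice numbered separately. Mice were 3 months old by their labels, except for 3 single-cell plates that carry the number of mouse 2 and the age of 4 months, so whether these came from the same animal cannot be told. Single-cell plates are labelled CD24 (5 plates, mouse 2), Epcam (6, mouse 2), onlyEpcam (14, mice 3 and 4), CD45Epcam (3, mouse 3), CD54Epcam (3, mouse 4), EpcamLow_Cd24high (2, mouse 1) or Epcam_Cd24low (1, mouse 1), and 10 plates of mice 1 and 2 carry no gate. The cell table held 39137313 UMIs in 16850 wells, with 109338 to 2348338 per plate. Plates share the same set of well barcodes, so a barcode alone does not mark a cell.

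EC cells are the serotonin-producing cells of the gut epithelium and the main store of serotonin in the body. Tph1 makes 5-hydroxytryptophan from tryptophan, the rate-limiting step, Ddc turns it into serotonin, and the vesicular transporter Slc18a1 loads it into dense-core granules that also hold chromogranins and, in many EC cells, the tachykinin substance P made from Tac1. They arise from Neurog3-positive progenitors like the hormone cells named after their peptides, sense irritants and microbial metabolites, and signal to nerve endings and to the neighbouring gut wall.

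The 250 bases upstream of the RefSeq start are shown for the pair of genes that chose the wells (Tph1 and Tac1) and for Reg4 and Afp, whose levels divided the EC wells. Sequences are from RefSeq, build GRCm38.p6, written 5′ to 3′ on the gene's strand. Capitals mark TAATTA, a core of letters bound by many homeodomain proteins. It was searched because Lmx1a, the higher gene with the largest fitted log2 change over mice, encodes a LIM-homeodomain factor. Lmx1a had no UMI in the other enteroendocrine wells of those mice, so its rank depends on how the fit handles counts of 0. The motif is its own reverse complement, so both strands were read at once.
Tph1 start 1, chr7:46672538-46672787, strand −: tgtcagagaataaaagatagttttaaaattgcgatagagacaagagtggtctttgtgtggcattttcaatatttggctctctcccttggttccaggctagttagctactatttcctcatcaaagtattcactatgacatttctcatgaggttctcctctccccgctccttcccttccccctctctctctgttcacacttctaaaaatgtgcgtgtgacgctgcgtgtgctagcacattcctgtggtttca
Tph1 start 2, chr7:46667378-46667627, strand −: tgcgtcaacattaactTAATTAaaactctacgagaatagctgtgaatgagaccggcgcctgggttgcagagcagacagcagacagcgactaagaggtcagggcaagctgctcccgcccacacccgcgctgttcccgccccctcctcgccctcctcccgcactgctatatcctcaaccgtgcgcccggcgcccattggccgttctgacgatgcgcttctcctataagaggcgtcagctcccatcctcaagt
Tac1, chr6:7554811-7555060, strand +: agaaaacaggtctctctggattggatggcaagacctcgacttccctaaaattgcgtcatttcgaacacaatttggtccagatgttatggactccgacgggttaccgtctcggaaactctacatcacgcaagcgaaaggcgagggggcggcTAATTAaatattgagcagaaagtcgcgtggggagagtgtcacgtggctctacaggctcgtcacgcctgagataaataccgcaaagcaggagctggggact
Reg4, chr3:98221906-98222155, strand +: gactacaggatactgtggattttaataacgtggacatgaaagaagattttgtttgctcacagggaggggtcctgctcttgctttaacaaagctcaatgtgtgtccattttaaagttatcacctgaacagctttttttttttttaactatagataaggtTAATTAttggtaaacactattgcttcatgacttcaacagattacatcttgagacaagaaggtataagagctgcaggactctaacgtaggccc
Afp, chr5:90490464-90490713, strand +: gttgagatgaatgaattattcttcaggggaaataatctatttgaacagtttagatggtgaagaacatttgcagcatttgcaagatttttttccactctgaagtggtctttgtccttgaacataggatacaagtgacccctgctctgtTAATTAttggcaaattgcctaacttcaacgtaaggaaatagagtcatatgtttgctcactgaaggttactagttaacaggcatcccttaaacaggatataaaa
The letters began 234 bases before the second Tph1 start, 100 before the Tac1 start, 92 before the Reg4 start and 103 before the Afp start, and were not in the window of the first Tph1 start. They were in 1590 of all 32851 promoter windows of the same table (4.84%). Of the genes called over mice that matched the table, 3 of 32 higher (9.38%) and 0 of 16 lower genes had the letters in a window, beside 2.4% of the genes tested, so most of the higher genes lacked them. A match is a description of letters and not of a bound site.

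Most EC wells came from a single gate of a single animal. Mouse 2 gave 87 EC wells, mouse 3 gave 5, and mice 1 and 4 gave 1 each, against 165, 5, 12 and 7 other enteroendocrine wells. The 5 plates labelled CD24 held 83 EC wells of 1080 kept (7.69%, Wilson 95% interval 6.24 to 9.43, counting error only). Over these plates EC wells were 4.73, 4.96, 12.9, 8.63 and 10.1% of kept wells, a mean of 8.27% ± 3.49 (SD, n = 5 plates). They were 37.1, 35.1, 47.9, 32.1 and 35.4% of the enteroendocrine wells on the same plates, a mean of 37.5% ± 6.08 (SD, n = 5 plates), so relative to its mean the share among enteroendocrine wells varied less between plates than the share among all wells. The other plates of mouse 2 held 4 EC wells of 713 (0.561%), and the 91 kept wells labelled 4 months held none, and a count of 0 allows up to 3 wells of the 91, of which 13 were enteroendocrine. These are shares of sorted wells and do not estimate how common EC cells are in the tissue, and the part of the gate in them was not tested.

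The 12 genes of the rule are described without a test, since they chose the wells. Tph1 had 1 or more UMIs in 89 of 94 EC wells, with a mean of 5.93 per well. Tac1 was in 47 of 94, with a mean of 1.93. Both genes were found in 42 wells, Tph1 alone in 47 and Tac1 alone in 5, so most wells held Tph1 and as many lacked Tac1 as held it. The sum of the pair was exactly 2 in 13 wells, 3 in 12 and at least 10 in 31, with a maximum of 45. Just outside the rule, 11 of the other enteroendocrine wells had a sum of 1 and 178 a sum of 0. Reg4, which the rule did not use, was in 8 of the 13 wells at a sum of 2 and in 4 of the 11 at a sum of 1, and the median Chga count was 9 in the former and 0 in the latter.

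**Figure D1:**
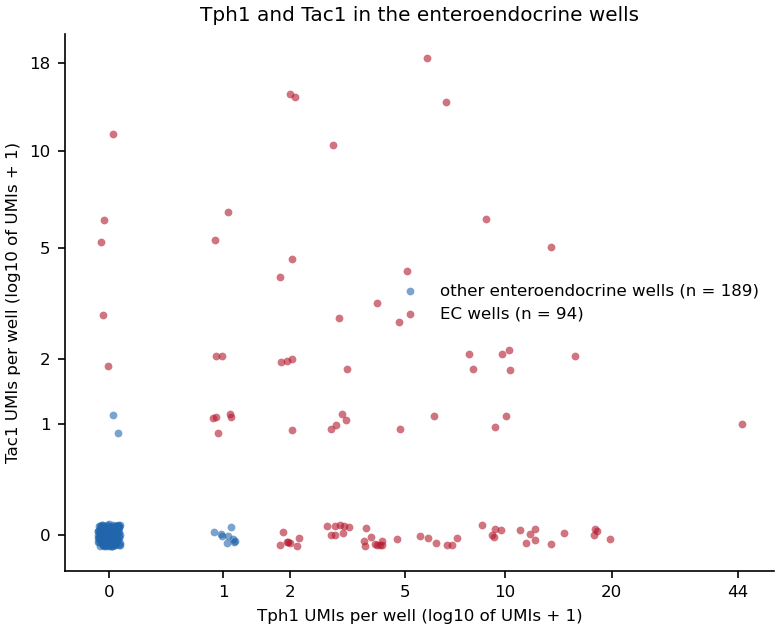
UMIs of Tph1 (x axis) and Tac1 (y axis), both as log10 of UMIs + 1, in each of the 94 EC wells and the 189 other enteroendocrine wells, with small random shifts so that wells do not hide each other. EC wells lie along the Tph1 axis with Tac1 at 0 or spread upward with Tac1, and 178 of the other wells sit at 0 for both.

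The granule proteins of the rule set EC wells apart in level. Chga, chromogranin A, had a mean of 22.3 UMIs and was in all 94 EC wells, against a mean of 0.762 in the other enteroendocrine wells. Chgb, chromogranin B, had a mean of 43.1 in EC wells and was in 93 of them, against 7.48. Sct, the hormone secretin, was in 88 of 94 EC wells with a mean of 12.7 UMIs, and its mean in the other enteroendocrine wells was 28.3.

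Other hormones were near background in EC wells. On the CD24 plates the median plate had 789 CPM (counts per 1000000: UMIs of a gene scaled to that total of the summed wells) of Gip in EC wells and 783 in wells that were not enteroendocrine, against 65996 in the other enteroendocrine wells. Sst, somatostatin, was at 447, 435 and 33610 CPM in the same order. The other enteroendocrine wells were led by Gip in 99 wells, Sst in 47, Sct in 17, Cck in 13, Nts in 7, Ghrl in 4 and Gcg in 2, so the main comparison is largely with Gip and Sst cells. A single EC well, that of mouse 1, had 10 or more UMIs of any of the 7 hormones Cck, Gip, Ghrl, Gcg, Nts, Sst and Pyy. It held 129 UMIs of Sct, 124 of Cck, 130 of Ghrl and 19 of Nts beside 3 of Tph1 and 4 of Chga, and no Reg4. The EC well of mouse 4 held 2 Tph1 UMIs, 8 of Chga, 13 of Chgb and no Reg4. Neither mouse entered the tests, for which a mouse needed 5 wells of each class.

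The label was checked with Reg4, a secreted lectin and known EC marker that was not used to choose wells. It was in 72 of 94 EC wells, with 0 to 365 UMIs and a median of 7. It was in 33 of 189 other enteroendocrine wells, at 9 UMIs or fewer, and in 119 of the 4916 remaining wells (2.42%). Median depth was 1830.5 UMIs in EC wells, 1903 in the other enteroendocrine wells and 1668 in the rest, and the median number of genes was 859, 673 and 492. With each well of the CD24 plates thinned to 500 UMIs, which left out 1, 3 and 105 shallower wells of the 3 classes, Reg4 was in 67.1, 6.67 and 3.45% of wells, and unthinned in 78.3, 22.5 and 10.1%.

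EC wells were then compared with the other enteroendocrine wells over the UMIs summed per mouse and class, in mice 2 and 3. In mouse 2, plates not labelled CD24 gave 27 of the 165 other enteroendocrine wells and 4 of the 87 EC wells. The 13 enteroendocrine wells labelled 4 months were among those 27, and no EC well had that label. Gate and age, and possibly animal, thus differed between the classes of mouse 2, and their part was not tested. With edgeR's quasi-likelihood test 64 of 1521 genes outside the rule passed an adjusted p of 0.05 (4.21%), 43 higher in EC wells (2.83%) and 21 lower (1.38%). Among the higher genes were the regulator Lmx1a, the channel Trpa1, the secreted lectin Reg4 and the synaptic protein Syn2. The lower genes included the regulator Isl1 and the granule gene Scg2, and no shared function of the 64 was tested. Mouse 3 contributed 5 wells of each class, and 38 of the 43 higher genes had no UMI in its other enteroendocrine wells while 32 had 1 to 3 UMIs in its EC wells. The spread between animals therefore rests on few molecules, and the calls over mice depended on the tool. Of the 64 genes, 11 also passed with DESeq2 (Reg4, Afp, Krt19, Serpina1c, Rbp4, Isl1, Rgs4, Fabp5, Scg2, Scgn and Gm6166), 49 were given no adjusted p by its filter on low means and 4 did not pass. With that filter off, 9 passed and 55 did not, and with limma on log2 of CPM plus 10, 10 passed and 54 did not. Lmx1a, Tpbg, Trpa1, Syn2 and Slc18a1 were among those that passed over mice in edgeR alone of these 3 tools. With the mouse as a block 144 genes passed (9.47%), 92 higher (6.05%) and 52 lower (3.42%), including all 64. With 2 mice the block leaves very little to measure each gene's own spread. Its p-values, here and below, therefore rest largely on spread pooled over genes.

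The 5 CD24 plates gave a denser comparison within mouse 2, added after the data were seen, and these plates are the same animal, so their p-values measure the spread between plates. There 124 of 429 genes passed (28.9%), 75 higher (17.5%) and 49 lower (11.4%), and with the plate as a block 132 (30.8%), 78 higher (18.2%) and 54 lower (12.6%). Of the 64 genes from the mice, 10 were abundant enough to be tested on the plates, and all 10 passed there in the same direction, though the plates hold most of the wells of mouse 2 and are no independent sample.

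**Figure D2:**
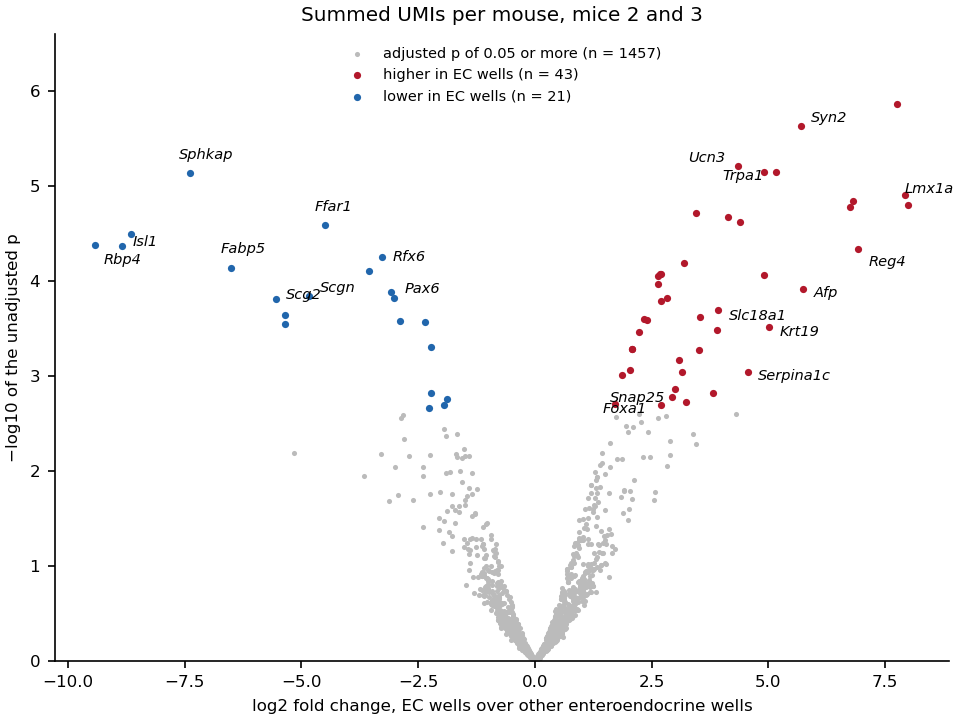
Log2 fold change of EC over other enteroendocrine wells (x axis) against −log10 of the unadjusted p (y axis) for 1521 genes, from UMIs summed per mouse in mice 2 and 3. The 43 genes higher in EC wells (red) include Lmx1a, Reg4 and Syn2 and the 21 lower genes (blue) include Rbp4, Isl1 and Sphkap, and the 12 genes of the rule are left out.

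Some regulators of transcription differed between the classes, in both directions. Lmx1a (chr1:167689237-167848741, strand +), a LIM-homeodomain factor, was at 260.5 CPM in EC wells of mouse 2 and 332 in mouse 3, and at 0 in the other enteroendocrine wells of both mice. On the CD24 plates EC wells had 89.3, 380.3, 239, 348 and 310.0 CPM and the other wells had none, so the groups did not overlap. In all, 53 UMIs in 34 EC wells stood against 1 UMI, and in the tested mice the level was at least 31.9-fold higher in EC wells, taking 3 UMIs as the floor of the other class (log2 8.00 ± 1.18 SE, adjusted p = 0.00254, edgeR). Foxa1, a forkhead factor of endoderm, was at 212 and 442 CPM in EC wells of mice 2 and 3 and at 31.1 and 0 in the others, 2.71 ± 0.71 on the log2 scale (adjusted p = 0.046, edgeR).

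Isl1 (chr13:116298281-116309689, strand −), a LIM-homeodomain factor of many hormone cells, went the other way. EC wells of the tested mice had none, and the other enteroendocrine wells had 416 CPM in mouse 2 and 526 in mouse 3. It was at 137, 394, 638, 346 and 352 CPM on the 5 plates in the other wells and at 0 on each plate in EC wells. It was at least 27.0-fold lower in EC wells (adjusted p = 0.00346, edgeR). Pax6, a paired-box factor, fell by 3.02 ± 0.58 on the log2 scale (adjusted p = 0.00639, edgeR) and Rfx6, a factor needed for islet and gut endocrine cells, fell by 3.28 ± 0.57 (adjusted p = 0.00407, edgeR), with 4 and 3 UMIs in all EC wells against 54 and 51.

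Of 30 enteroendocrine transcription factors listed, 9 were tested over mice, and 2 were higher (Lmx1a, Foxa1), 3 lower (Pax6, Isl1, Rfx6) and 4 did not pass, beside 2.83% higher and 1.38% lower over all genes, with a list median of 0.14 on the log2 scale against 0.05 over all genes. Lmx1a and Isl1 entered the test only through the class where they are high, so this count and median are a description. Fev, an ETS factor linked to serotonin neurons, was at 147 CPM in EC wells and 93.3 in the others in mouse 2, and at 0 and 210.4 in mouse 3 (adjusted p = 0.977, edgeR). Insm1, a zinc-finger factor of endocrine progenitors, was at 212 and 122 CPM in mouse 2 and 664 and 631 in mouse 3 (adjusted p = 0.947, edgeR). Neurog3, the factor of the progenitor state, had 6 UMIs in 3 EC wells and none in the others, below the filter.

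Among the genes of serotonin handling, the vesicular transporter passed over mice, joined by Qdpr with the mouse as a block. Slc18a1 (chr8:69037711-69089235, strand −) was at 407 and 553 CPM in EC wells of mice 2 and 3 and at 22.6 and 0 in the others. On the plates it was at 447, 242, 376, 845 and 254 CPM in EC wells and at 39.1 or less in the others, so all 5 plates separated. It was 3.93 ± 0.78 higher over mice (adjusted p = 0.00791) and 4.19 ± 0.60 higher over plates (adjusted p = 0.000178, edgeR). Slc18a2, the related monoamine transporter, had 4 UMIs in EC wells and none in the other enteroendocrine wells.

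Of the enzymes that make serotonin or its cofactor, outside the rule, Ddc and Gch1 did not pass and Qdpr passed over plates. Ddc, the decarboxylase of the second step, was at 447, 761, 461, 646 and 366 CPM in EC wells and at 332, 413, 666, 325 and 252 in the other enteroendocrine wells on the 5 plates. These ranges overlapped, with a difference of 0.09 ± 0.32 (adjusted p = 0.844, edgeR over plates) and −0.22 ± 0.77 over mice (adjusted p = 0.968). Gch1, which starts synthesis of the tetrahydrobiopterin cofactor, was 0.52 ± 0.64 over mice (adjusted p = 0.907, edgeR). Qdpr, which recycles that cofactor, passed over plates, at 282 to 691 CPM against 58.7 to 93.9, 2.22 ± 0.32 (adjusted p = 0.000193, edgeR), and over mice it was 1.89 ± 0.77 (adjusted p = 0.253, and 2.07 ± 0.57, adjusted p = 0.00452, with the mouse block, edgeR). The serotonin reuptake transporter Slc6a4 had no UMI in the 94 EC wells and 4 in the other enteroendocrine wells. Of 19 listed genes, 5 were tested over mice and 1 passed (2 with the block), beside 4.21% of all genes (9.47% with the block), and 3 were tested over plates and 2 passed (Slc18a1, Qdpr), beside 28.9%. Slc18a1 entered both tests only through EC wells, so these counts are a description.

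Of 20 genes that earlier work reports in EC cells, 18 were in the table and 12 were tested over mice, of which 7 were higher (Reg4, Lmx1a, Trpa1, Ucn3, Afp, Tpbg, Ambp) and 1 lower (Sphkap), beside 2.83% higher and 1.38% lower over all genes. The list median was 3.80 on the log2 scale against 0.05, but members such as Lmx1a and Tpbg entered the test only through the EC wells where they are high, so this count and median are a description. Iapp, the islet amyloid peptide and also on the list, was too rare for either test and lay the other way, with 4 UMIs in 3 EC wells and 223 in 34 of the other enteroendocrine wells, at 21.7 and 608 CPM in mouse 2 and with no UMI in either class of mouse 3. Reg4 (chr3:98222156-98236748, strand +) was at 16416 and 17032 CPM in EC wells of mice 2 and 3 and at 133 and 0 in the others. The plates had 13221, 14382, 22018, 20775 and 9806 CPM in EC wells and 39.1, 188, 264, 303 and 12.6 in the others, and no value overlapped. The change was 6.93 ± 1.18 over mice (adjusted p = 0.00355) and 6.36 ± 0.70 over plates (adjusted p = 1.84e-05, edgeR).

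Tpbg (chr9:85842380-85847040, strand +), a membrane glycoprotein, had 50 UMIs in 33 EC wells and none in the other enteroendocrine wells, at least 31.3-fold in the tested mice (adjusted p = 0.00254, edgeR). Trpa1 (chr1:14872648-14918862, strand −), the irritant-gated cation channel of EC cells, was at 141 and 442 CPM in EC wells of mice 2 and 3 and at 2.83 and 0 in the others (adjusted p = 0.00188, edgeR). On the plates it was at 89.3, 380.3, 119, 99.4 and 28.2 CPM in EC wells, and the second plate lay far above the other 4. Ucn3, the stress peptide urocortin 3, had 30 UMIs in 14 EC wells and 2 in the others, 4.35 ± 0.61 on the log2 scale (adjusted p = 0.00188, edgeR). Ambp, a plasma protein precursor, was 3.24 ± 0.84 higher over mice (adjusted p = 0.0439) and 3.13 ± 0.53 over plates (adjusted p = 0.000544, edgeR).

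Cartpt, the precursor of the CART peptides, was too rare for the test over mice because mouse 3 had none. On the plates EC wells had 1102, 1348, 563, 398 and 958 CPM and the others 0, 0, 27.8, 173 and 25.2, which did not overlap (4.06 ± 0.61, adjusted p = 0.000212, edgeR). Sphkap (chr1:83254139-83408200, strand −), an anchor for protein kinase A, had no UMI in EC wells and 53 in 36 other enteroendocrine wells, at least 9.05-fold lower in EC wells (adjusted p = 0.00188, edgeR).

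Syn2 and a few granule genes passed over mice, some higher and some lower, while most granule genes tested did not pass. Syn2 (chr6:115134902-115282006, strand +), a synaptic vesicle phosphoprotein, was at 228 and 221 CPM in EC wells of mice 2 and 3 and at 2.83 and 0 in the others, a ratio of 82.7 with a counting interval of 14.1 to 3339 (adjusted p = 0.00179, edgeR). Rab3c, a vesicle GTPase, was 3.45 ± 0.54 higher (adjusted p = 0.00266) and Snap25, a membrane fusion protein, 2.94 ± 0.75 higher (adjusted p = 0.041, edgeR). Scg2, secretogranin 2, was at 21.7 CPM in EC wells and 616 in the others in mouse 2, and at 0 and 1789 in mouse 3, and fell by 5.55 ± 1.07 (adjusted p = 0.0064, edgeR). Scgn, the calcium-binding protein secretagogin, fell by 4.84 ± 0.92 (adjusted p = 0.00639, edgeR).

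Of 34 granule and exocytosis genes, 21 were tested over mice, 2 were higher, 2 lower and 17 did not pass, beside 2.83% higher and 1.38% lower over all genes. Members such as Rab3c and Scg2 entered the test only through the class where they are high, so these counts are a description. With the mouse block 5 were higher (Ptprn, Syt7, Rab3c, Snap25, Cadps) and 4 lower (Scg2, Cpe, Scgn, Cplx2), beside 6.05 and 3.42%. On the plates 9 were tested, 4 were higher (Pcsk1n, Resp18, Syt7, Gpx3) and 2 lower (Cpe, Cplx2), where 17.5% of all genes tested were higher and 11.4% lower. Gpx3, a secreted glutathione peroxidase, was at 1099 to 1936 CPM in EC wells and 371 to 499.6 in the others (1.43 ± 0.25, adjusted p = 0.000729, edgeR). Cplx2, complexin 2, which clamps and promotes fusion, was at 59.6 to 149 CPM against 238 to 394 (fell by 1.86 ± 0.31, adjusted p = 0.000524, edgeR). Cpe, the carboxypeptidase of peptide hormone processing, was at 173 to 547 CPM against 469 to 1568, overlapping ranges (fell by 1.51 ± 0.41, adjusted p = 0.0135, edgeR). Pcsk1, the prohormone convertase, did not pass (0.90 ± 0.45, adjusted p = 0.141, edgeR over plates).

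The receptors that passed over mice went both ways. Ffar2, a receptor for short-chain fatty acids, was at 206 and 111 CPM in EC wells of mice 2 and 3 and 25.4 and 0 in the others (2.71 ± 0.49, adjusted p = 0.00487, edgeR). Ffar1, a receptor for long-chain fatty acids, had 1 UMI in EC wells and 57 in the others and fell by 4.51 ± 0.72 (adjusted p = 0.00266, edgeR). Of 46 receptors and channels 7 were tested, 2 were higher (Trpa1, Ffar2) and 1 lower (Ffar1), beside 2.83% higher and 1.38% lower over all genes, and the list median was 0.54 on the log2 scale against 0.05 over all genes. Trpa1 and Ffar1 entered the test only through the class where they are high, so this count and median are a description. With the mouse block Scn3a, a sodium channel, was higher too. Piezo2, a mechanosensitive channel, had no UMI in either class, and with 3 UMIs as the limit of a count of 0 its absence cannot be shown at this depth.

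**Figure D3:**
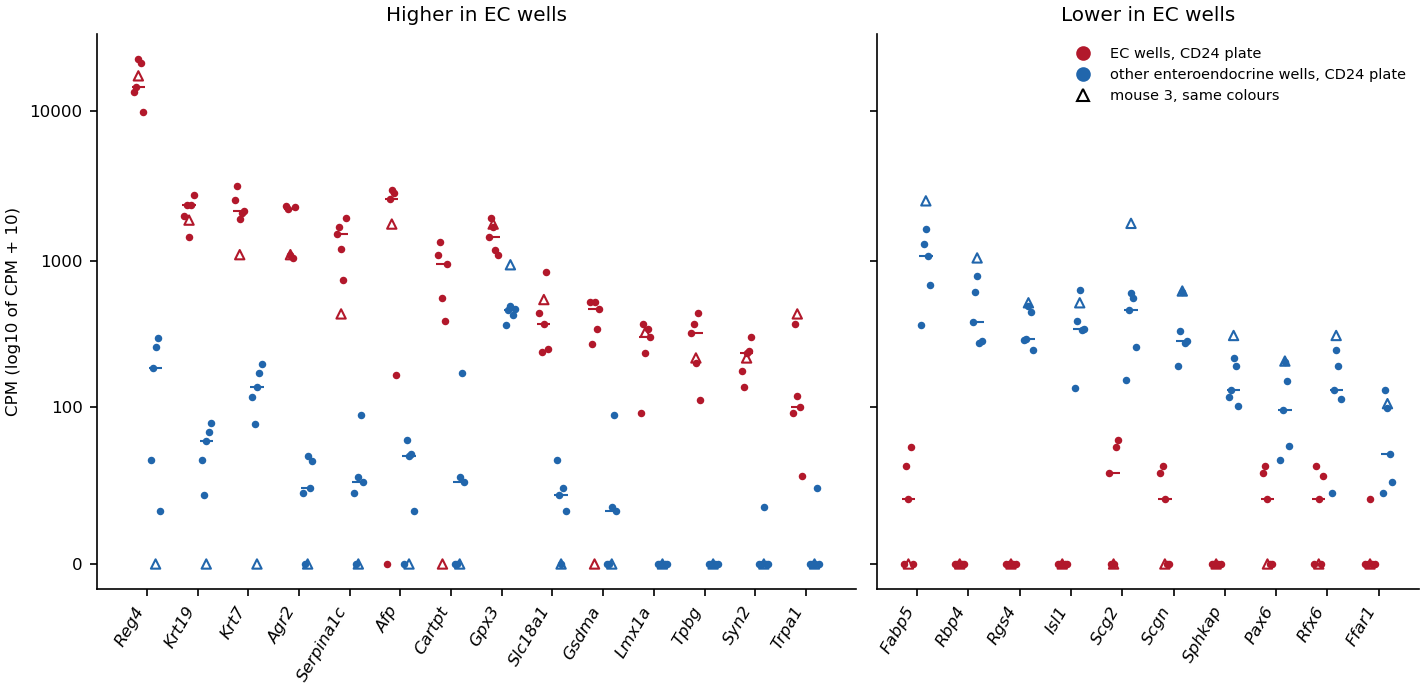
CPM (log10 of CPM + 10) of 24 genes in EC wells (red) and other enteroendocrine wells (blue) on the 5 CD24 plates (dots, line at the median) and in mouse 3 (open triangles). For Reg4 the red dots lie at 9806 to 22018 CPM and the blue at 12.6 to 303, and for Rbp4, Rgs4, Isl1 and Sphkap every red symbol is at 0.

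Rbp4 had the largest fitted fall over mice, followed by Isl1, described above, and Rgs4. Rbp4 (chr19:38116629-38125281, strand −), the plasma retinol carrier, had no UMI in 94 EC wells and 219 UMIs in 81 of the other enteroendocrine wells. The other wells had 391, 619.6, 791, 281 and 289 CPM on the plates, and the level in EC wells was at least 35.3-fold lower in the tested mice (adjusted p = 0.00346 over mice and 0.000247 over plates, edgeR). Rgs4 (chr1:169741477-169747642, strand −), a regulator of G protein signalling, had 0 and 132 UMIs (adjusted p = 0.00298, edgeR). Fabp5, a fatty acid binding protein, was at 0 to 49.7 CPM in EC wells and 371 to 1638 in the others on the plates (fell by 5.96 ± 0.64, adjusted p = 1.84e-05, edgeR). Gm6166, which passed in the same direction, and Gm14328 are annotated as processed pseudogenes, so reads may belong to their parent genes.

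Serpina1c (chr12:103894926-103904887, strand −), a mouse alpha-1-antitrypsin, was at 1519, 1694, 1212, 746 and 1944 CPM in EC wells and at 86.6 or less in the others (4.57 ± 1.08 over mice, adjusted p = 0.024, edgeR). Serpina1e was at 888 to 1191 CPM against 43.3 or less (3.81 ± 0.96 over mice, adjusted p = 0.0374, edgeR). These paralogs are nearly identical in sequence, so the split of reads between them is uncertain. Afp (chr5:90490737-90508907, strand +), alpha-fetoprotein, was at 1769 and 1769.5 CPM in EC wells of mice 2 and 3 and at 25.4 and 0 in the others (5.75 ± 1.08, adjusted p = 0.00581, edgeR). On the plates Afp in EC wells was at 0, 2593, 2987, 2833 and 169 CPM, and a single well held 25.7% of its 342 UMIs in EC wells, so the level was set by few wells. In mouse 3 a single well held 15 of the 16 Afp UMIs of its EC wells, so the like values of the 2 mice rest on few cells.

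Keratins differed from each other. Krt19 (chr11:100140810-100148665, strand −), of simple epithelia, was at 2051 and 1880.1 CPM in EC wells of mice 2 and 3 and at 50.9 and 0 in the others, and at 1451 to 2761 against 18.8 to 75.5 on the plates (5.03 ± 1.04 over mice, adjusted p = 0.00981, edgeR). Krt7 and Krt20, chosen after their values were seen, were at 1912 to 3181 against 75.1 to 201 CPM and at 1161 to 1638 against 18.8 to 216 CPM on the plates. They passed over plates (3.74 ± 0.33, adjusted p = 2.99e-06, and 3.61 ± 0.48, adjusted p = 0.000113, edgeR) but not over mice, where adjusted p was 0.0897 and 0.186 without and 2.75e-07 and 0.000278 with the mouse block. The other keratins tested on the plates, Krt8 and Krt18, did not pass (0.71 ± 0.38, adjusted p = 0.171, and −0.59 ± 0.41, adjusted p = 0.279, edgeR). Also chosen after their values were seen, Gsdma, a gasdermin, and Ccnd2, a cyclin, were 4.04 ± 0.59 and 3.11 ± 0.44 higher over plates (adjusted p = 0.000194 and 0.000165, edgeR), and Gsdma was at 0 in mouse 3.

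Ribosomal protein genes leaned the other way on the plates. None of 99 genes and copies tested was higher and 21 were lower, where 75 of all 429 genes (17.5%) were higher and 49 (11.4%) lower, with a median of −0.49 on the log2 scale against −0.14 over all genes tested. Over mice 150 were tested and none passed, with a median of −0.27.

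The rest of the higher genes named by size of change were Gm42637, Psat1 (a serine synthesis enzyme), Gm13373, 2810025M15Rik, Ppic (a cyclophilin) and Ttyh1 (a chloride channel family member). Gm42637 had 42 UMIs in 25 EC wells and none in the others, at least 26.3-fold in the tested mice (adjusted p = 0.00179, edgeR). Psat1 had 21 UMIs in 10 EC wells and was at 0 on 2 of the 5 plates. 2810025M15Rik is annotated as a transcribed pseudogene, so its count is uncertain.

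Markers of other cell types were read in the same wells. Goblet genes summed to 3131 to 5044 CPM in EC wells, 319 to 1152 in other enteroendocrine wells and 102 to 1160.0 in the remaining wells of the CD24 plates. The 2 goblet genes tested on the plates both passed: Tff3, a trefoil factor, at 1638 to 2339 against 215 to 805 CPM (2.07 ± 0.39, adjusted p = 0.00137) and Agr2, a disulfide isomerase, at 1044 to 2323 against 0 to 41.6 CPM (5.68 ± 0.47, adjusted p = 1.96e-06, edgeR). Over mice the same 2 genes did not pass without the mouse block (adjusted p = 0.451 for Tff3 and 0.0752 for Agr2) and both passed with it (1.69 ± 0.53, adjusted p = 0.0176, and 3.58 ± 0.64, adjusted p = 1.06e-06, edgeR). Of the 4 defining goblet genes, Tff3 had 425 UMIs in 68 of the 94 EC wells and Agr2 332 in 59, while the mucin Muc2 had 5 UMIs and Clca1 none, against 4996 and 4618 in the non-enteroendocrine wells. The goblet genes reached 10 UMIs in 33 of 94 EC wells. Enterocyte genes summed to 2116 to 5607 CPM in EC wells, 1251 to 2814 in other enteroendocrine wells and 902 to 3300.5 in the rest, and were higher in EC than in other enteroendocrine wells on 4 of the 5 plates. Sis, the brush-border sucrase-isomaltase, and Apoa1, an apolipoprotein, were higher in EC wells over plates (1.88 ± 0.30, adjusted p = 0.00036, and 2.07 ± 0.43, adjusted p = 0.00297, edgeR), while Fabp1, a fatty acid binding protein and the only other one tested there, was at −1.27 ± 0.55 (adjusted p = 0.0946, edgeR). Alpi, the intestinal alkaline phosphatase, had 1 UMI. Over mice 10 of the 14 enterocyte genes were tested, none was higher (Apoa1 and Apoc3 were with the mouse block) and Anpep, a brush-border aminopeptidase, was lower (fell by 2.23 ± 0.49, adjusted p = 0.015, edgeR). In mouse 3, which had no CD24 plates, goblet and enterocyte genes were at 10613 and 13713 CPM in non-enteroendocrine wells. EC wells of that mouse were at 3097 and 1548 CPM. Over mice, 7 of 12 goblet and 12 of 14 enterocyte genes were lower in EC than in non-enteroendocrine wells, and none was higher. Over all genes 5.1% were lower, and with the mouse block 2 and 2 were lower, beside 0.222%.

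Immune genes summed to 375.5 to 3015 CPM in EC wells and to 14790 to 48110 in the non-enteroendocrine wells, and to 389 to 15270.0 in the other enteroendocrine wells, where 2 of the 5 plates were at 13049 or more. Over mice Cd8a (adjusted p = 0.042) and Nkg7 (adjusted p = 0.0484, edgeR) were lower in EC wells, and with the mouse block all 5 immune genes tested were. On the plates neither of the 2 tested passed (Gzma, adjusted p = 0.135, and Ccl5, adjusted p = 0.116, edgeR), and on the fifth plate the immune sum was 3015 CPM in EC wells and 981 in the other enteroendocrine wells. Paneth genes had plate medians of 4771, 4829 and 5172 CPM in the 3 classes, and moved with the plate: 2 plates were at 104 to 113 CPM in EC wells. Tuft genes summed to 89.3 to 2005 CPM in EC wells, 254 to 3774 in the other enteroendocrine wells and 883 to 4548 in the rest, and reached 10 UMIs in 1 EC well. Of stem and dividing genes, 5 of 12 were at 0 in EC wells. With every well holding 10 or more UMIs of the goblet, tuft or immune list left out, 187 genes were tested on the plates and 41 passed, 31 higher and 10 lower. Of the 124 genes called with all wells, 61 were still tested, all 61 kept their direction and 37 passed.

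**Figure D4:**
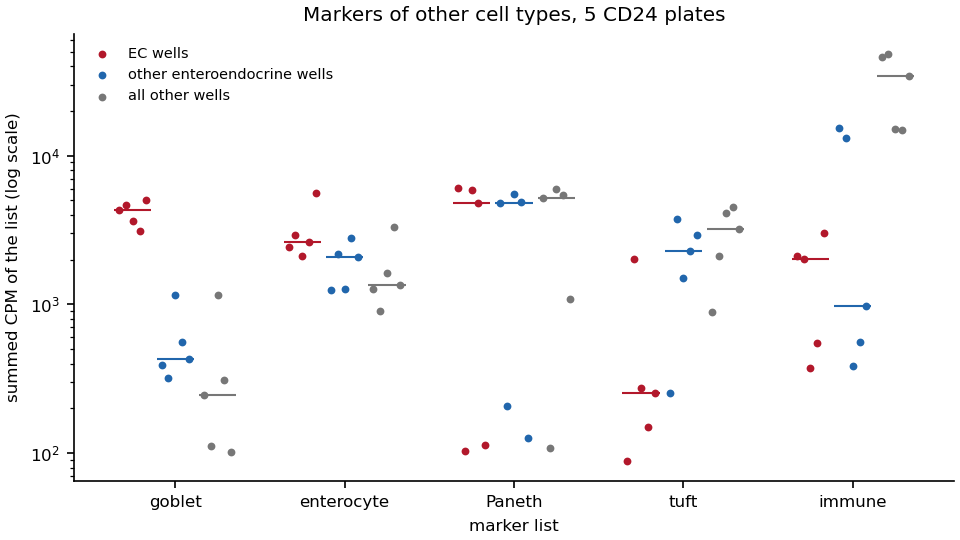
Summed CPM (log axis) of 5 marker lists in EC wells (red), other enteroendocrine wells (blue) and all other wells (grey) on the 5 CD24 plates, with a line at the median. The goblet list is at 3131 to 5044 CPM in EC wells and at most 1160.0 in the other classes on these plates, and the Paneth list has like medians in all 3 classes.

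EC wells were also compared with all non-enteroendocrine wells. Over mice 722 of 8577 genes passed (8.42%), 285 higher (3.32%) and 437 lower (5.1%), and with the mouse as a block 135 (1.57%), 116 higher (1.35%) and 19 lower (0.222%). Of 34 granule and exocytosis genes 19 were tested, 16 were higher and 1 lower, with a median of 6.91 on the log2 scale against −0.31 over all genes. With the mouse block 15 of the 19 were higher and none lower, Pam and Rab27a being lost. Several members entered this test only through EC wells, so the count and the median are a description. Snap25 had 67 UMIs in 39 EC wells and none in 4916 other wells, Rab3c 30 and none, and Kcnc1, a fast potassium channel, 27 and none. Ptprn, a granule membrane phosphatase, had 46 UMIs in EC wells and 1 in the other wells. Scn3a, a sodium channel, had 34 UMIs and 1, and Amigo2, an adhesion protein, 29 and 1. Acsl6 and Kcnb2 had 16 and 15 UMIs against none, and the other enteroendocrine wells held 8 UMIs of Acsl6 and 36 of Kcnb2. These 8 genes passed with and without the block. They entered the test only through the EC wells where they are high, so this too is a description. On the CD24 plates 612 of 1072 genes passed (57.1%), 299 higher (27.9%) and 313 lower (29.2%).

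EC wells were not uniform. On the CD24 plates Reg4 ran from 0 to 365 UMIs in the 83 EC wells, with a median of 47.8 per 10000 UMIs and a maximum of 1062, and the 8 wells with most held 57.2% of its UMIs. Chga and Tph1 were spread more evenly, the 8 top wells holding 24.5 and 30.9%, but both are genes of the rule that chose the wells. Outside the rule the 8 top wells held 28.9% of Krt19, 29.6% of Krt7 and 34.3% of Slc18a1, but 57.6% of Cartpt and 89.5% of Ucn3. Afp was in 21 of 83 wells, and the 8 top wells held 93.3% of it. These figures were chosen after the values were seen and are descriptions over wells.

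Afp and Reg4 were found together. All 21 wells with Afp held Reg4, against 44 of the 62 wells without Afp. Of the 21, 8 held a single Afp UMI, as did 9 of the 138 other enteroendocrine wells on these plates (6.52%), and Reg4 was at 29951 CPM in those 8 and 44290 CPM in the 13 with 2 or more. Summed over those wells Reg4 was at 40344 CPM with Afp and 6905 CPM without, at median depths of 2195 and 1790.5 UMIs. Ucn3 was in 7 of the 21 Afp wells and 3 of the 62 others. Tac1 was in 13 of the 21 and 29 of the 62, and none of these shares was tested. The plate without Afp in EC wells had 13 EC wells and Reg4 at 13221 CPM, so the pattern over wells is partly that of 4 plates.

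**Figure D5:**
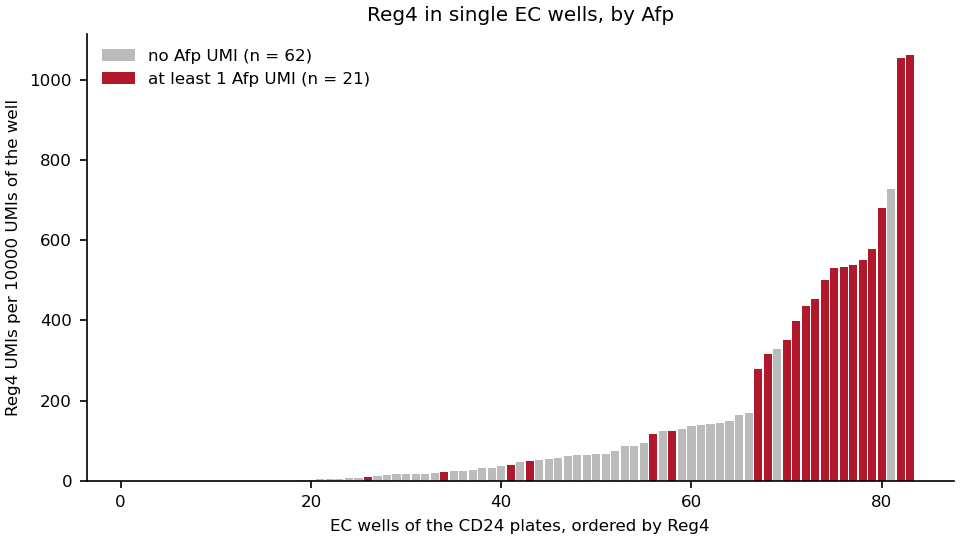
Reg4 UMIs per 10000 UMIs of the well (y axis) in each of the 83 EC wells of the CD24 plates, ordered by Reg4, with wells holding at least 1 Afp UMI in red (n = 21) and the others in grey (n = 62). Red bars gather at the right end, up to 1062, and no well at 0 is red.

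Wells with and without Tac1 were compared on the 5 plates, 42 against 41 wells. None of 77 genes passed (0%; 2 higher and 2 lower at an unadjusted p under 0.05, and none with DESeq2). The smallest adjusted p was for Tff3, −0.68 ± 0.20 (adjusted p = 0.48, edgeR), and Gpx3 followed at −0.82 ± 0.30 (adjusted p = 0.667). Tph1, a gene of the rule, was at 1452 to 3981 CPM in wells with Tac1 and 2884 to 4571 in wells without. The rule asks for at least 2 UMIs of the pair, so a well without Tac1 had to hold Tph1, and this difference is partly set by the selection. Cartpt was in 14 of 42 wells with Tac1 and 25 of 41 without, at median depths of 2185 and 1672 UMIs.

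The study's landmark lists place enteroendocrine cells along the crypt-villus axis, and the share of landmark UMIs from tip genes (20 tip and 632 crypt genes, those of the rule removed) was taken as the position. The authors chose these lists on the clumps. The share was 0.0810 in EC wells and 0.126 in the other enteroendocrine wells of mouse 2, and 0.0794 and 0.170 in mouse 3, and the exact permutation test gave p = 0.333, the smallest that 2 against 2 mice allow. On the plates it was 0.0831 ± 0.0107 and 0.126 ± 0.00955 (SD, n = 5 plates each), lower in EC wells on all 5, with an exact two-sided permutation p = 0.00794, the smallest possible. Paired by plate, an exact sign-flip permutation test gave p = 0.0625, the smallest that 5 pairs allow, which does not pass 0.05. Reg4 is a crypt landmark. Without it the difference on the plates was 0.00366 (exact permutation p = 0.548), and over mice it went from −0.0677 to −0.0185, still lower in EC wells (exact permutation p = 1.0).

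In the clump table, 17 clumps of 6004 kept from mice 1 to 5 met the same rule (1, 1, 3, 12 and 0 by mouse), of which 4 were labelled 4n, pairs by DNA content, and 13 h4n, larger clumps. Mouse 6, labelled h2n, had 0 EC clumps of 278 kept. In these clumps Tac1 had a mean of 5.18 UMIs and was in 16 of 17, and Tph1 a mean of 1.41 in 11 of 17, so Tac1 chose more of them than of the wells. Lmx1a had 10 UMIs in 7 of the 17 EC clumps and none in 46 other enteroendocrine clumps, and Reg4 was in 3 of 17. None of 356 genes passed over the 4 mice with at least 1 clump of each class (0%; 0 higher and 1 lower at an unadjusted p under 0.05, and none with DESeq2). The share of tip landmarks of enterocytes in the clumps differed by −0.0240 between the classes (exact permutation p = 0.571, n = 4 mice). It was higher in EC clumps in 2 of the 4 mice, and without mouse 1, which had 1 EC clump, the difference was 0.0159.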

How the data were processed

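Members and gene lists were chosen with earlier results of these data known. Per the labels the authors dissociated jejunum with EDTA and sorted clumps or cells into MARS-seq plates. Their processing notes name bcl2fastq 2.15.0.4 and GRCm38. The authors deposited whole-number UMI counts per gene and well, before normalization, and these counts were used as they were, with no doublet caller. Counts were summed per mouse (at least 5 wells per class; mice 2 and 3 qualified) or per CD24 plate and class. They were tested with edgeR 4.0.16 in R 4.3.3 (quasi-likelihood, TMM, filterByExpr, two-sided, Benjamini-Hochberg over all genes, 0.05). DESeq2 1.42.0 and limma 3.58.1 were alternatives. Clumps needed over 500 UMIs, 200 genes and at most 30% mitochondrial UMIs. Too few mice qualified for the clump and Tac1 comparisons as planned, so 1 clump per class and plates were used.

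Up to 15 higher and 10 lower genes with the largest change, the same way in both mice, were named, with 10 more against all other wells, and listed genes that passed or define their list. The same mouse gave both classes, and the deviations of its classes correlated at 0.206 over 1521 genes. Counts simulated for the mice had the same fixed dispersion for every gene, no effect of the mouse and no spread between wells. Of the 200 genes changed, those too rare to be tested are not counted here. Among those tested, 40 of 55 genes changed 4-fold and 58 of 59 changed 8-fold were recovered, with 9 false calls of 1205 genes tested. Real counts vary more freely, so these figures do not measure the power of the test on them. CPM is a scaling of the deposited counts.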

Additional observations from a re-analysis of the deposited data

Results flagged for a closer look

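Over the 5 CD24 plates, 59 sets of values were searched for a plate far from the others, and chance flags about 1 set in 20. In EC wells Trpa1 stood at 380.3 CPM on the second plate, Snap25 at 119 CPM on the third and Ptprn at 423 CPM on the fifth. No cause was tested.

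A few genes moved one way in every tested sample of wells and the other way in every mouse of clumps, which was not tested as a difference. The mean difference of EC minus other enteroendocrine clumps was −109 CPM for Serpina1c, −67.3 CPM for Serpina1b and −92.4 CPM for Tspan13, where wells were higher. These rest on 0, 2 and 3 UMIs in EC clumps against 8, 15 and 32, and without mouse 2 the means were −20.2, −27.1 and −60.6 CPM.

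Wells left out by the limits also met the EC rule in 15 cases. All 15 had over 1500 genes, 9 had over 7000 UMIs, 13 were on CD24 plates and 12 held Reg4, with medians of 7328 UMIs and 2137 genes.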

How the results depend on the processing

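Counts of genes past 0.05 depended on the tool most over mice, where 2 animals and few molecules carry the spread. Against the other enteroendocrine wells the 64 genes became 12 with DESeq2 (919 of 1521 genes had no adjusted p), 9 without its independent filtering, 16 with limma on log2 of CPM plus 10, 0 without a filter on low counts (233 higher and 419 lower at an unadjusted p under 0.05), 144 with the mouse as a replicate block, 161 at a threshold of 0.25, 101 with 5 enteroendocrine UMIs, 15 with wells thinned to 500 UMIs (of only 150 genes tested) and 0 in mice with at least 1 well per class (of 30 tested). Against all other wells 722 became 277 with DESeq2, 135 with the mouse block, 2046 at 0.25 and 106 thinned (of 3689 tested). In mice with at least 1 well per class they became 553 of 6055 tested, with 88 higher and 465 lower where the main fit had 285 and 437. There DESeq2 size factors moved the median log2 change of all genes from −0.31 to −0.48. Leaving out a mouse, the stricter EC rule, other-type wells and CD24 plates left 1 mouse and were not run. On the CD24 plates the 124 genes became 231 without a filter, 252 at 0.25, 22 thinned (of 48 tested), 41 without wells of other cell type markers (of 187), and 78 to 126 when a plate was left out (78 without plate 5). The plate block gave 132. The 612 genes against all other wells became 2315 without a filter, 118 thinned (of 286), 130 without other-type wells and 529 to 653 without a plate. For Tac1 and for clumps 0 became 1 without a filter. The landmark difference over mice was −0.0909 to −0.0446 without a mouse. On the plates it was −0.0475 to −0.0388 without a plate, and with the plate block, an exact sign-flip test, −0.0432 with p = 0.0625, the smallest possible. It turned to 0.00366 without Reg4. In clumps it was −0.0423 to 0.0159, positive without mouse 1. For the named genes the mouse block ended 15 calls, all against all other wells, and the plate block none. The causes were not tested.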
